A study of Mus musculus with 17 samples.

Results

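Spinophilin, the Phactr proteins and protein phosphatase 1 (PP1) were followed through the cortex of mice with altered Hnrnph2. The 9 genes were found by symbol among 55453 genes of an expression table. They were the PP1 catalytic subunits Ppp1ca, Ppp1cb and Ppp1cc, the spinophilin family genes Ppp1r9a and Ppp1r9b, and the Phactr family genes Phactr1, Phactr2, Phactr3 and Phactr4. Of these, Ppp1r9b and Phactr3 were chosen by their own values, because they were higher in both knockin lines than in controls, and the other 7 were added as their relatives and partners. The changes of Ppp1r9b and Phactr3 in the mutant lines are therefore given as a description, with no test. The question addressed was whether the 2 genes stood alone in their families.

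PP1 is a serine/threonine phosphatase whose catalytic subunits are directed to their substrates by a large set of regulatory proteins. Spinophilin, encoded by Ppp1r9b, and its paralog neurabin, encoded by Ppp1r9a, bind both PP1 and filamentous actin and hold the phosphatase in dendritic spines, where it acts on glutamate receptors and CaMKII. The Phactr proteins (phosphatase and actin regulators) bind PP1. They also bind monomeric actin, through RPEL motifs, and compete for actin with the MRTF coactivators of the transcription factor SRF.

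Bulk cortex RNA was measured in 17 male C57BL/6J mice. The KO group (hemizygous Hnrnph2 KO, 3 mice, 8 weeks old) carried a frameshifting indel. The R206W group (hemizygous Hnrnph2 R206W, 3 mice, 8 weeks) and the P209L group (hemizygous Hnrnph2 P209L, 3 mice, 3 weeks) were knockins with a substitution in the nuclear localization signal of hnRNPH2, one of the hnRNP H/F proteins, which bind RNA. Each line had wild-type controls of its own, with 3 mice for KO, 3 for R206W and 2 analysed here for P209L. Age and line cannot be told apart for P209L. Values were TPM, a share of each sample's transcripts scaled by transcript length, so the depth behind them is unknown and their precision was judged from the spread between mice. In bulk tissue, fewer cells of a type and less RNA per cell cannot be told apart.

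The targeted gene followed its labels. Hnrnph2 stood at 23.5, 21.3 and 24.4 TPM in the KO mice and at 80.5, 145 and 139.7 TPM in their controls, and its mean was 100.4% of the control mean in R206W and 107% in P209L, with overlap in both. KO control 1 stood apart in composition, with 20.1% of TPM from mitochondrial genes against 10.7% to 15.4% in the other mice. Several results of comparisons that use the KO controls are also given without it, but the KO marker changes are not. Tests of R206W, P209L and the average of their effects used a spread pooled over all groups, this mouse included. They were not repeated with this mouse alone left out. Neuronal markers (Snap25, Syt1, Rbfox3, Slc17a7 and Gad1) summed to between 2498 and 5231 TPM. The sum was 2931 TPM in KO control 1, against 4871 and 5231 TPM in the other KO controls and 4113 to 4332 TPM in the KO mice. It was 4435 to 5056 TPM in the mice of the R206W line and 2498 to 3040 TPM in those of the P209L line. No marker in the lists for 11 cell types or tissues was at 0 in every mouse of a group. In the P209L line, choroid plexus markers (Ttr, Kl and Folr1) summed to 1762 TPM in P209L control 2 and to at most 25.6 TPM in every other mouse of the series. In the same line, muscle markers summed to 108 and 113 TPM in the controls and 44.5 to 54.6 TPM in the knockins. Of the 4 muscle markers tested, 3 had negative log2 changes and 1 a positive one, and limma called 2. The 4 blood markers had negative log2 changes (sums of 1727 to 2521 TPM in knockins against 2327 and 4372 TPM), and so did the 6 oligodendrocyte markers (sums of 2401 to 3460 TPM against 3964 and 5928 TPM). The 5 microglia and 4 leptomeningeal fibroblast markers had negative changes too, with sums that overlapped.

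In the KO and R206W lines limma called 0 of the markers. In R206W the 4 blood markers had negative log2 changes, with sums of 515 to 629.6 TPM against 676 to 1124 TPM and no overlap, and so did the 6 oligodendrocyte markers, with sums that overlapped (2715 to 3448 TPM against 3237 to 3491 TPM). The 4 endothelial markers had positive changes there (sums of 99.5 to 108 TPM against 87.5 to 95.9 TPM). The 5 astrocyte markers, 4 with positive changes and 1 with a negative one, summed to 1271 to 1291 TPM against 1189.5 to 1217 TPM. In KO all markers of blood (4), oligodendrocytes (6), astrocytes (5), microglia (5), endothelium (4) and leptomeningeal fibroblasts (4) had positive changes, with sums that overlapped those of the controls. These changes were not computed without KO control 1. That mouse had the lowest oligodendrocyte sum of its group (2570.5 TPM against 3285 and 3123 TPM), and its blood sum lay between those of the other KO controls. The median KO change of all genes was 0.06 with it and −0.06 without it. The part of these markers in the results of the 3 lines was not tested.

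In the 6 control mice aged 8 weeks, Ppp1r9b was the most abundant of the 9 transcripts per length, at 369 ± 16.95 TPM (mean ± SD, n = 6). Ppp1ca (233 ± 20.6 TPM), Ppp1cb (201 ± 10.5 TPM) and Phactr1 (199 ± 30.9 TPM) followed, and the values of neighbours in this order overlapped. Ppp1cc (98.2 ± 12.7 TPM), Ppp1r9a (89.8 ± 14.9 TPM) and Phactr3 (81.6 ± 1.63 TPM) came next and also overlapped. Without KO control 1, Ppp1ca (235 to 248 TPM) lay above Ppp1cb (182 to 214 TPM), Ppp1cc (102 to 104 TPM) above Ppp1r9a (92.4 to 98.2 TPM), and Ppp1r9a above Phactr3 (80.3 to 84.2 TPM). Phactr2 and Phactr4 were scarce, at no more than 9.94 and 6.06 TPM in any of these mice.

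Spinophilin was the member with the largest change. Ppp1r9b (ENSMUSG00000038976.12, GRCm38 chr11:94991035-95006899, plus strand) was measured at 780.1, 786 and 745 TPM in the R206W mice and at 339, 368 and 389 TPM in their controls. The P209L mice had 579.7, 647 and 663 TPM against 204 and 233 TPM in theirs. All 6 knockin mice lay above all 8 of the wild-type mice, whatever their age. The KO mice, at 348, 348 and 409 TPM, lay on both sides of their controls at 364, 376 and 378 TPM. On the log2(TPM + 1) scale the change was 1.08 in R206W (95% confidence interval 0.87 to 1.28) and 1.53 in P209L (1.29 to 1.76), which put the knockin means at 211% and 288% of the control means. In the KO line it was −0.02 (−0.23 to 0.19). Leaving out any mouse kept the change between 1.02 and 1.12 in R206W and between 1.43 and 1.62 in P209L. Without P209L control 2, the mouse with choroid plexus transcripts, it was 1.62.

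The paralog of spinophilin did not pass the test in any mutant line. Ppp1r9a, the gene of neurabin (chr6:4902917-5165661, plus strand), was measured at 96.8, 89.2 and 112 TPM in the R206W mice and 98.2, 97.3 and 92.4 TPM in their controls. In the P209L line it was at 41.0, 42.7 and 60.5 TPM against 41.3 and 38.9 TPM. The groups overlapped in both lines. Its log2 change was 0.05 (−0.32 to 0.41) in R206W and 0.23 (−0.18 to 0.65) in P209L, with limma adjusted p-values of 1.00 and 0.885. In the KO mice Ppp1r9a stood at 76.6, 83.5 and 70.8 TPM and in their controls at 59.8, 94.9 and 96.6 TPM, the lowest of these being KO control 1. The change was −0.09 (adjusted p = 0.999), and −0.31 (adjusted p = 0.464) without that control, when all 3 KO mice lay below the other 2.

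The ratio of spinophilin to neurabin transcripts within a mouse does not depend on the scaling of the sample. It was 3.45, 3.79 and 4.21 in the R206W controls and 8.06, 8.81 and 6.63 in the R206W mice. In the P209L line it was 4.93 and 5.99 in controls and 14.1, 15.2 and 10.97 in knockins. The knockin and control values did not overlap in either line, and the P209L mice were above every other mouse of the series. The KO mice were at 4.55, 4.16 and 5.77, below KO control 1 (6.10) and above the other 2 KO controls (3.96 and 3.91).

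**Figure D1:**
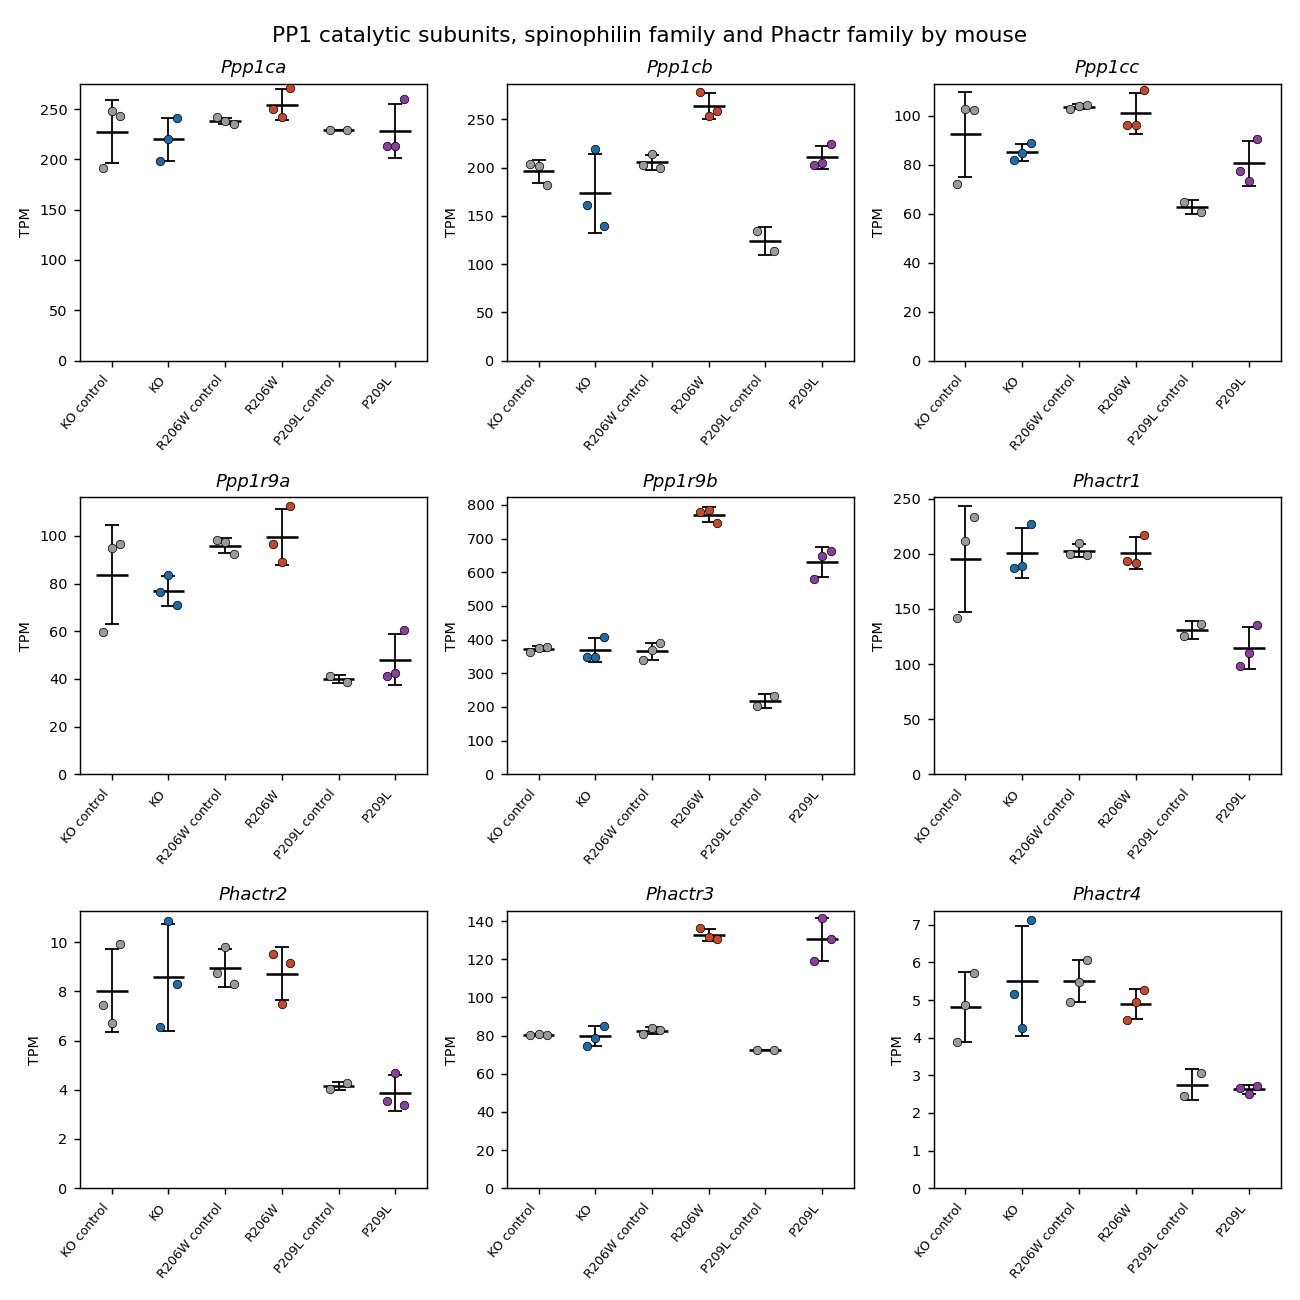
TPM (y axis, from 0) of each of the 9 genes in every mouse of the 6 groups (x axis). Points are mice, horizontal lines are group means and error bars are SDs; Ppp1r9b, Phactr3 and Ppp1cb lie above their own controls in both knockin lines, and Ppp1r9b reaches 745 to 786 TPM in R206W.

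Phactr3, also known as scapinin (ENSMUSG00000027525.17, chr2:178118975-178338492, plus strand), was the Phactr gene chosen for its values. It was measured at 136, 132 and 131 TPM in the R206W mice and at 80.8, 84.2 and 82.9 TPM in their controls. The P209L mice had 119, 142 and 131 TPM, and their controls both had 72.4 TPM. The 8 wild-type mice lay between 72.4 and 84.2 TPM, the narrowest relative range among the 9 genes. The KO mice were at 74.6, 79.0 and 85.1 TPM, spread around their controls at 80.4, 80.8 and 80.3 TPM. The log2 change was 0.68 (0.49 to 0.86) in R206W, 0.84 (0.63 to 1.04) in P209L and −0.02 (−0.20 to 0.17) in KO. With median-of-ratios scaling of the samples the KO value was −0.10.

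Phactr1, the most abundant of the family in control cortex, was at 194, 191 and 217 TPM in the R206W mice against 199.6, 209.9 and 199 TPM in their controls. In the P209L line it stood at 98.5, 110.1 and 135 TPM against 125 and 136 TPM. The groups overlapped in both lines, and the log2 changes were −0.02 (−0.36 to 0.32) and −0.20 (−0.58 to 0.18). In the KO line the change was 0.06, and it was −0.02 with median-of-ratios scaling and −0.15 without KO control 1, which had the lowest value of its group (142 TPM against 212 and 234 TPM). Phactr2 ranged from 3.38 to 10.9 TPM and Phactr4 from 2.46 to 7.12 TPM over all mice, and every mutant group overlapped its controls in both. Their changes in the 3 lines lay between −0.14 and 0.15, with intervals that reached from −0.50 to 0.48. The KO changes without KO control 1 were 0.04 for Phactr2 and 0.03 for Phactr4. At such low values the log2(TPM + 1) scale understates a change.

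Within the family, Phactr3 made up 27.2% to 27.96% of summed Phactr TPM in the R206W controls and 36.0% to 39.6% in the R206W mice. In the P209L line the share was 33.5% and 35.5% in controls and 48.0% to 54.7% in knockins, so that Phactr3 was the most abundant Phactr transcript in 2 of the 3 P209L mice and in no other mouse. The summed Phactr TPM was 347 ± 13.9 in R206W and 300.02 ± 8.27 in its controls (SD, n = 3 each).

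Among the catalytic subunits, Ppp1cb, the gene of the beta isoform of PP1, had the largest change in the knockins. It was measured at 279, 254 and 259 TPM in the R206W mice and at 203, 214 and 199 TPM in their controls. The P209L mice had 203, 204 and 225 TPM against 134 and 113 TPM. Mutant and control values did not overlap in either line. The log2 change was 0.36 in R206W (SE 0.133, interval 0.07 to 0.64, limma adjusted p = 1.00) and 0.77 in P209L (SE 0.149, interval 0.45 to 1.08, adjusted p = 0.0717), and neither passed the threshold of 0.05 by itself. In the average of the R206W and P209L effects it was 0.56 (SE 0.0998, interval 0.35 to 0.77, adjusted p = 0.0295), which passed. The KO mice were spread widely, at 161, 219 and 139.8 TPM against 204, 202 and 182 TPM, with a change of −0.20 (adjusted p = 0.999). The KO effect minus the R206W effect was −0.56 (interval −0.96 to −0.16, limma adjusted p = 1.00), so a difference between these lines did not pass the test either.

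The call for Ppp1cb depended on the mice and settings used. Its adjusted p in the average of both knockins was 0.0397 without P209L control 1, and it rose to between 0.0603 and 0.315 when any 1 of the other 10 mice was left out (the 3 R206W controls, the 3 R206W mice, the 3 P209L mice or P209L control 2). The highest of these, with a change of 0.50, came without P209L control 2, which had the lowest Ppp1cb value of the series and held the choroid plexus transcripts. The change itself stayed between 0.50 and 0.62 in all alternatives. With median-of-ratios scaling the adjusted p was 0.0645. The call held in 8 of 19 alternatives, 1 of them among the 11 that left out a mouse. Over all 19 the limma adjusted p lay between 0.0016 and 0.315. The mice of the KO line, which entered the spread used by limma, were not left out singly here. The fit of the groups of this comparison alone, which held none of them, kept the call.

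Neither Ppp1ca, the gene of the alpha isoform, nor Ppp1cc, that of the gamma isoform, passed the test. Ppp1ca was at 249.9, 242 and 271 TPM in R206W against 242, 238 and 235 TPM, and at 213, 213 and 259.7 TPM in P209L against 229 and 229.5 TPM. Its log2 changes were 0.09 (−0.15 to 0.34) and −0.01 (−0.29 to 0.27). Ppp1cc was at 77.6, 73.4 and 90.8 TPM in the P209L mice and at 64.8 and 60.8 TPM in their controls, with no overlap and a change of 0.35 (0.05 to 0.65, adjusted p = 0.576). In R206W it overlapped its controls, with a change of −0.04 (−0.31 to 0.23).

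In the KO line Ppp1ca was at 199, 220.3 and 241 TPM against 192, 248 and 243 TPM, and Ppp1cc at 81.8, 84.7 and 88.9 TPM against 72.4, 103 and 102 TPM. The lowest control in both was KO control 1, and the groups overlapped through this mouse alone. The log2 changes were −0.04 for Ppp1ca and −0.10 for Ppp1cc (adjusted p = 0.999 for each). Without KO control 1 all 3 KO mice lay below the controls in both genes, and the changes were −0.16 (adjusted p = 0.571) and −0.27 (adjusted p = 0.410). With sample weights, which counted KO control 1 at a weight of 0.0819, both were called lower, by −0.26 (adjusted p = 0.0217) and −0.30 (adjusted p = 0.0134). The share of all genes called with these weights was not taken.

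The share of Ppp1cb among catalytic transcripts was 37.0% to 38.5% in the R206W controls and 40.4% to 44.6% in the R206W mice, and 28.1% and 31.3% in the P209L controls and 39.1% to 41.6% in the P209L mice. In the KO controls it was 43.6% in KO control 1 and 36.5% and 34.5% in the other 2. With KO control 1, 1 of the 3 R206W mice lay above all wild-type mice, and without it all 3 did. Spinophilin transcripts were fewer than the summed catalytic transcripts in all 11 mice of the KO line, R206W controls and P209L controls, with ratios of 0.477 to 0.870. They outnumbered them in all 6 knockin mice, with ratios of 1.16 to 1.33 in R206W and 1.15 to 1.32 in P209L.

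**Figure D2:**
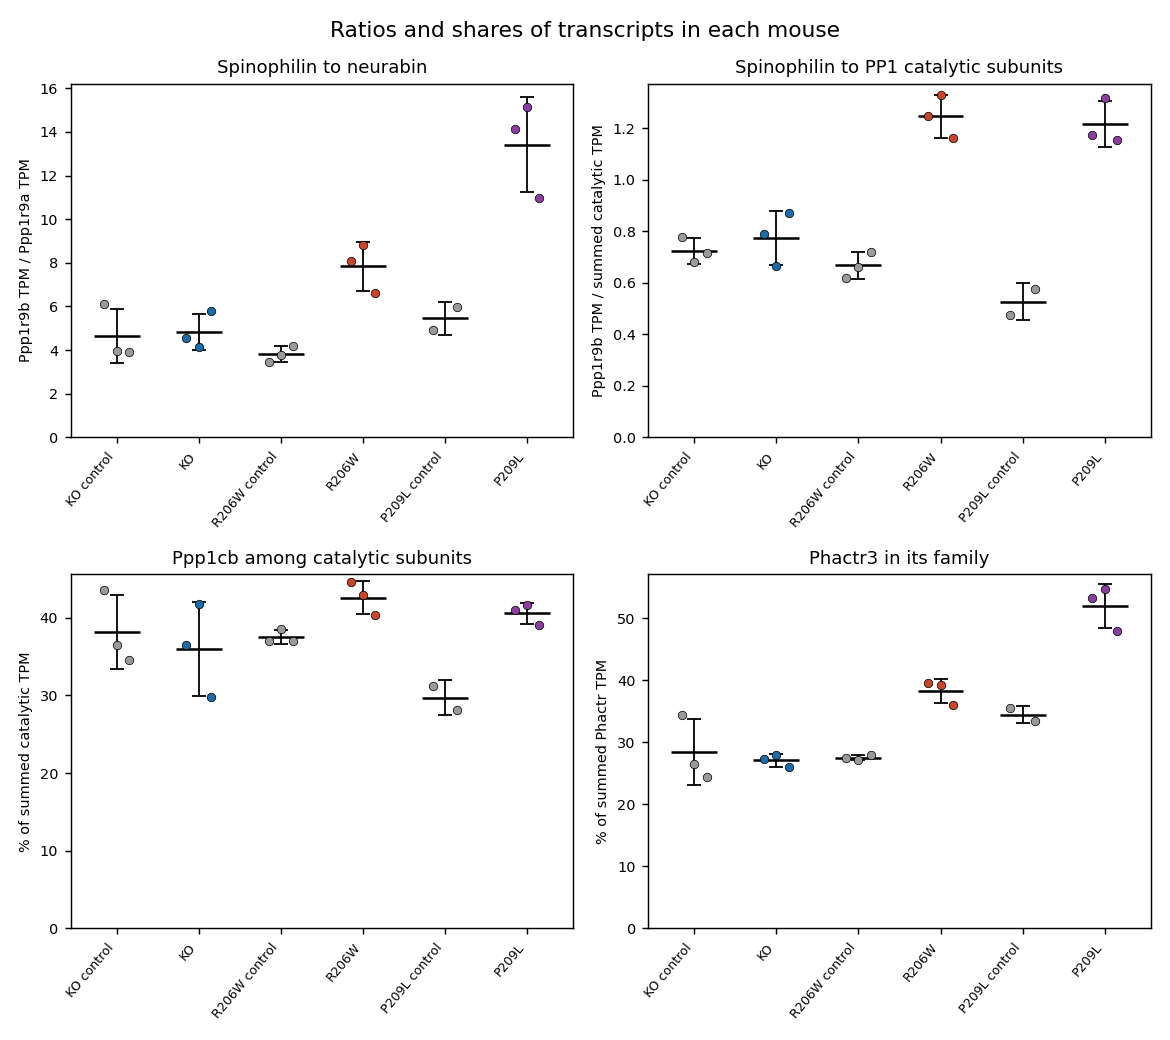
Ratios and shares of TPM (y axes, from 0) within each mouse of the 6 groups (x axes): spinophilin to neurabin, spinophilin to summed PP1 catalytic subunits, Ppp1cb as a percent of catalytic TPM and Phactr3 as a percent of Phactr TPM. Points are mice, lines are means and bars are SDs; the spinophilin to catalytic ratio is at least 1.15 in every knockin mouse and at most 0.870 in every other mouse.

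The counts over the 7 genes not chosen by their values stood as follows, beside all 16265 genes with a mean of at least 1 TPM. In the KO line limma called 0 of 7 past an adjusted p of 0.05 and 0 of 7 at an unadjusted p under 0.05, where 0.00615% and 4.08% of all genes passed. None of the 7 had KO values wholly above or wholly below its controls, which 5.43% and 0.824% of all genes had. When KO control 1 was left out, 3 of 7 (Ppp1r9a, Ppp1ca and Ppp1cc) were wholly below and 0 wholly above, against 17.2% and 7.88% of all genes. Limma then called 0 of 7, and 2 of 7 (Ppp1r9a and Ppp1cc) at an unadjusted p under 0.05, against 0.0307% and 10.5% of all genes, and the median change of the 7 was −0.16 where that of all genes was −0.06. In R206W it called 0 of 7, and 1 of 7 (Ppp1cb) at an unadjusted p under 0.05, against 0.0369% and 2.19% of all genes. In that line 1 of 7 was wholly higher and 0 wholly lower, against 8.09% and 8.11% of all genes. In P209L it called 0 of 7, and 2 of 7 (Ppp1cb and Ppp1cc) at an unadjusted p under 0.05, against 0.0984% and 7.46%. Those 2 were wholly higher and 0 wholly lower, against 14.2% and 10.7%. Without P209L control 2 it called 0 of 7, and 1 of 7 (Ppp1cb) unadjusted, against 0.0492% and 2.98%, with 3 of 7 wholly higher (Phactr4 as well) against 22.8%. In the average of both knockin effects it called 1 of 7, Ppp1cb, at either threshold, against 0.178% and 5.32%, and without P209L control 2 it called 0 and 1 (Ppp1cb) unadjusted, against 0.0615% and 3.38%. In the KO effect minus the R206W effect it called 0 of 7, and 1 of 7 (Ppp1cb) unadjusted, against 0.0307% and 2.29%, and the counts were 0 and 1 (Ppp1cb) without KO control 1, against 0.0738% and 6.98%. The median change of the 7 genes was −0.04 in KO, −0.02 in R206W and −0.01 in P209L, where that of all genes was 0.06, 0.01 and 0.02. These 7 genes were listed with earlier results of the same mice known, so the count of 1 is no independent evidence about PP1.

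**Figure D3:**
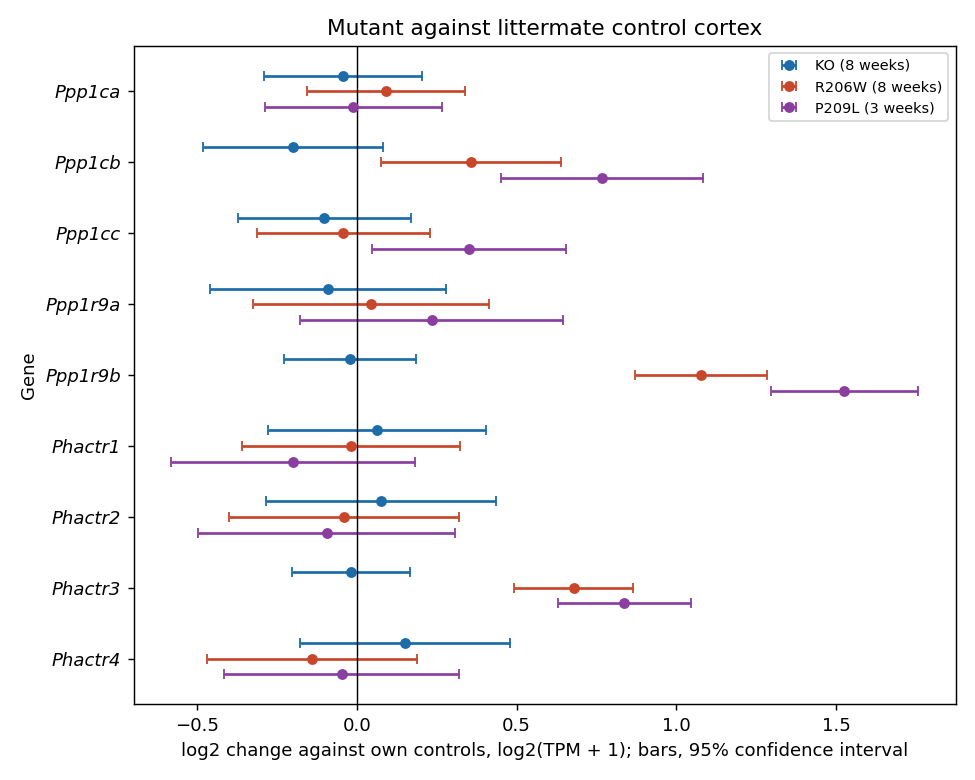
Log2 change of TPM + 1 against the line's own controls (x axis) for the 9 genes (y axis) in the KO, R206W and P209L lines; points are limma estimates and bars their 95% confidence intervals. In the KO line all 9 intervals include 0. Ppp1r9b and Phactr3 were chosen because they were higher in both knockin lines, so their knockin intervals are a description and no test. Of the genes not chosen by their values, Ppp1cb has intervals above 0 in both knockin lines and Ppp1cc in P209L.

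Promoter sequences are shown for Ppp1r9b and Ppp1cb, the gene chosen for its rise and the one relative that was called, to set their base composition side by side. They are RefSeq sequences of build GRCm38.p6, 5′ to 3′ on the gene's own strand, from 250 bases before to 50 bases after the start, at chr11:94990962-94991261 (plus strand) and chr5:32458720-32459019 (plus strand). Capitals mark GGGCGG, the GC box bound by Sp1-type factors, read on both strands (CCGCCC on the other).
Ppp1r9b: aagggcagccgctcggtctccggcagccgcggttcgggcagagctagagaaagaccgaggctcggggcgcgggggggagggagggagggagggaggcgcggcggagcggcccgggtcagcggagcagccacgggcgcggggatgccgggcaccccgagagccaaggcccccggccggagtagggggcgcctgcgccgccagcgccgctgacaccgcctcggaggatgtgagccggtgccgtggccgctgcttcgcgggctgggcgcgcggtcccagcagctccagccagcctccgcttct
Ppp1cb: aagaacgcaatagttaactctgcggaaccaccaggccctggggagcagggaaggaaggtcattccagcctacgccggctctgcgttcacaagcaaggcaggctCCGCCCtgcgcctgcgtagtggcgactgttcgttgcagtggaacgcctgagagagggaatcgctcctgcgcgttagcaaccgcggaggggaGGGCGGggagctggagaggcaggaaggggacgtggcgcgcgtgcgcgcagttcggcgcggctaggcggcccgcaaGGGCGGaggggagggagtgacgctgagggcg
The Ppp1r9b window holds 0 copies of GGGCGG and the Ppp1cb window 3, and at least 1 copy is in 35.7% of all 32851 RefSeq promoter windows of this length. The palindromic cAMP response element TGACGTCA is in neither, nor in the windows of the other members that matched (7 of 9 matched by symbol), and is in 1.79% of all windows. Both windows are rich in G and C, at 77.3% for Ppp1r9b and 67.3% for Ppp1cb, where the median of all windows is 52.7%. The 2 windows of Ppp1r9a hold 63.7% and 82.0%.

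Proteins of the hnRNP H/F family bind runs of G in RNA, and the members were described by this feature. In the longest protein-coding transcript of each gene in GENCODE M21, Ppp1r9b had 23.1 runs of at least 3 G per kilobase, above 97.2% of the 13400 genes compared, and a GC content of 62.3%. Ppp1ca, which did not pass the test in any mutant line, had nearly as many, at 22.4 runs per kilobase. Phactr3 had 8.85 and Ppp1cb 9.90, both below the median of 12.4, and Ppp1r9a had 10.9. Introns were not examined.

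The genes whose 3 log2 changes were closest to those of Ppp1r9b, by root mean square difference over the KO, R206W and P209L lines, were led by Ddn, the gene of the postsynaptic protein dendrin, at a difference of 0.12. Ddn stood at 981 ± 79.5 TPM in R206W and 518 ± 8.85 TPM in its controls, and at 1090.1 ± 126 TPM (n = 3) and 341 ± 21.4 TPM (n = 2) in the P209L line. The next 4, Gm27366, Gm11367, Snora15 and Gm22952, were listed at 0 in every mouse but 1 of the R206W and 1 of the P209L group, so their likeness rests on single mice. For Phactr3 the closest were Gm13378, Rimklb, Tnpo2, Ash1l and Shank1, at differences of 0.07 to 0.12. Gm13378 was scarce, at 0.18 and 0.29 TPM in the P209L controls and 0.41 to 2.23 TPM in the P209L mice, so its likeness rests on low values. Shank1, the gene of a postsynaptic scaffold, stood at 314 ± 16.8 TPM in R206W against 179.5 ± 13.4 TPM and at 152 ± 13.3 TPM in P209L against 93.7 ± 14.8 TPM. Since Ppp1r9b and Phactr3 were chosen by these changes, the likeness is a description.

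The tested genes next to Ppp1r9b and Phactr3 on the chromosome did not pass the test. Samd14, which starts 2979 bases after Ppp1r9b on the same strand, was at 15.3 ± 1.39 TPM in R206W and 14.4 ± 0.788 TPM in its controls (n = 3 each), a log2 change of 0.08. In P209L it was at 22.2 ± 4.99 TPM against 14.7 ± 0.304 TPM, a change of 0.54 (SE 0.174, adjusted p = 0.389). Col1a1, on the other side, was at no more than 2.27 TPM on average in any group. Beside Phactr3, the log2 changes in R206W and P209L were −0.17 and 0.06 for Zfp931 and 0.05 and 0.02 for Ppp1r3d, a glycogen-targeting subunit of PP1. No annotated gene overlapped Ppp1r9b or Phactr3. The genes that overlapped other members had means of at most 1.05 TPM, except Rad9a, which lies on the opposite strand to Ppp1ca with a mean of 6.39 TPM.

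Of 28 other regulatory subunits of PP1, limma called 0 in KO, R206W, P209L and the average of both knockin effects, and at an unadjusted p under 0.05 there were 2, 2, 3 and 1, where 4.08%, 2.19%, 7.46% and 5.32% of all genes passed. Without P209L control 2 the count in P209L was 1, against 2.98% of all genes. The smallest p in the knockins belonged to Ppp1r21, an endosomal protein, which stood at 64.2 ± 2.91 TPM in R206W against 50.2 ± 3.32 TPM, and at 71.0 ± 7.25 TPM in P209L against 52.0 ± 3.80 TPM. Its average log2 change was 0.39 (SE 0.0902, adjusted p = 0.157). Ppp1r1a, the gene of inhibitor-1, had unadjusted p-values under 0.05 in KO (log2 change 0.32, adjusted p = 0.999) and in R206W (0.23, adjusted p = 1.00). Ppp1r1b, the gene of DARPP-32, was at 56.2 ± 9.83 TPM in P209L and 79.3 ± 13.2 TPM in its controls (change −0.49, adjusted p = 0.565). The median change of these 28 genes was 0.07, 0.05 and −0.0021 in KO, R206W and P209L, where that of all genes was 0.06, 0.01 and 0.02. In KO it was −0.08 without KO control 1, where that of all genes was −0.06, and 3 genes had an unadjusted p under 0.05, against 10.5% of all genes.

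The catalytic subunits of related phosphatases (PP2A, calcineurin, PP4, PP5 and PP6) gave 0 calls of 8 in each of the 3 lines, and an unadjusted p under 0.05 only for Ppp6c in P209L, where 7.46% of all genes passed, at 37.8 ± 1.42 TPM against 29.2 ± 5.76 TPM (log2 change 0.37, adjusted p = 0.507). Ppp3ca had one in KO without KO control 1, against 10.5% of all genes, and without P209L control 2 there was 0 of 8 in P209L, against 2.98%. Of 30 genes of spine actin dynamics, 0 were called in any line or in the average of the knockins, with 0, 1, 2 and 3 at an unadjusted p under 0.05 in KO, R206W, P209L and the average, where 4.08%, 2.19%, 7.46% and 5.32% of all genes passed. Leaving out KO control 1 gave 4 in KO (Arpc2, Cttn, Pak1 and Ssh2), against 10.5% of all genes, and without P209L control 2 there was 1 in P209L and 1 in the average, against 2.98% and 3.38%. Ssh1, a slingshot phosphatase that activates cofilin, was the gene in R206W, at 8.49 ± 0.843 TPM against 6.51 ± 0.486 TPM, and in P209L it was at 5.61 ± 0.725 TPM against 3.96 ± 0.226 TPM (average change 0.37, adjusted p = 0.325). The other in P209L was Cdc42, a small GTPase, with a change of 0.31 (adjusted p = 0.530).

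Since the Phactr proteins compete with MRTF for actin, 10 genes of the MRTF-SRF axis were examined. Limma called 0 of them in the 3 lines, and at an unadjusted p under 0.05 there was 1 in KO (Tagln, 12.2 ± 4.67 TPM against 7.09 ± 2.04 TPM) and 0 in R206W and P209L, where 4.08%, 2.19% and 7.46% of all genes passed. The gene in KO was Mrtfb in place of Tagln without KO control 1, against 10.5% of all genes. The log2 change of Srf itself was 0.23 in R206W (adjusted p = 1.00) and 0.19 in P209L (adjusted p = 0.927). Of 12 synaptic partners and substrates of spinophilin and PP1, 11 were tested, with 0 called and 0 at an unadjusted p under 0.05 in each line, beside the same shares of all genes. Without KO control 1 there were 4 in KO at an unadjusted p under 0.05 (Gria1, Grm5, Nefl and Rgs4), against 10.5% of all genes, and 0 called. Camk2a, the CaMKII subunit that PP1 dephosphorylates in spines, stood at 665 ± 96.9 TPM in P209L and 839.85 ± 92.8 TPM in its controls (change −0.34, adjusted p = 0.738). The median changes of the 5 lists in R206W and P209L lay between −0.04 and 0.08, where those of all genes were 0.01 and 0.02.

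**Figure D4:**
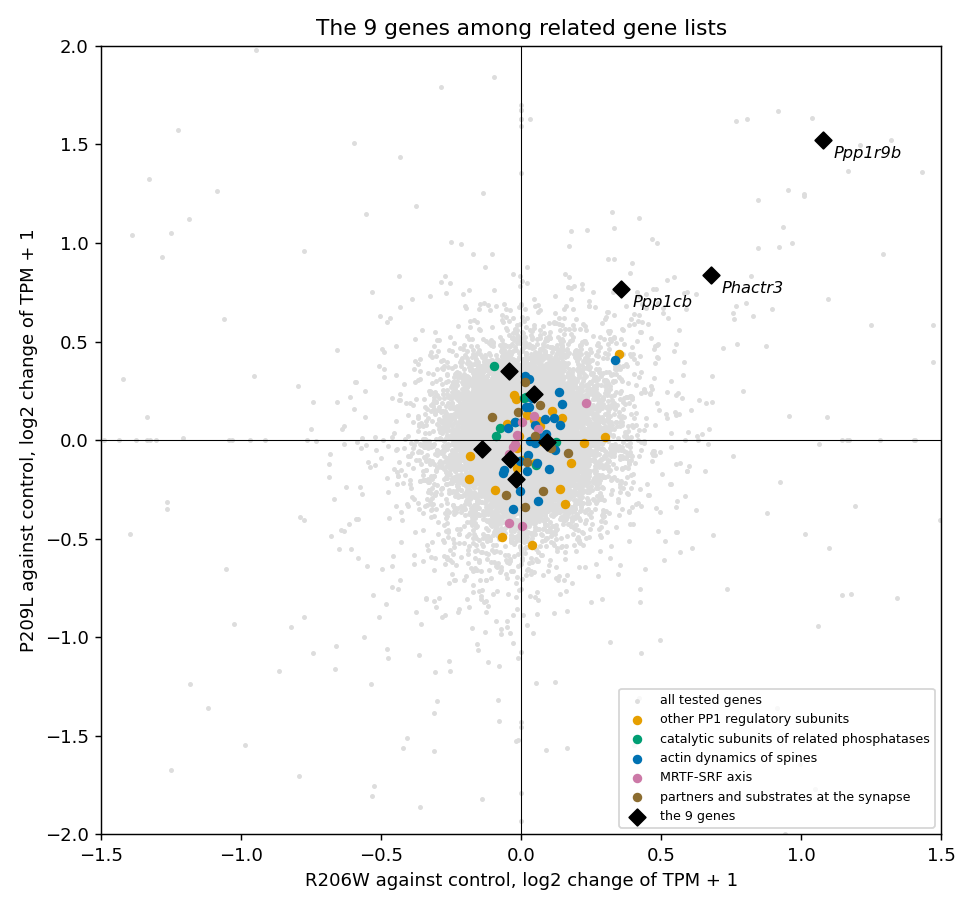
Log2 change of TPM + 1 in R206W (x axis) and P209L (y axis), each against its own controls, for the 9 genes (black diamonds), 5 lists of related genes (colors) and all tested genes (grey, of which 73 lie outside the axes). Ppp1r9b lies at 1.08 and 1.53, Phactr3 at 0.68 and 0.84 and Ppp1cb at 0.36 and 0.77. Of the related genes, Ppp1r21 (0.35 and 0.44) and Ssh1 (0.34 and 0.41) lie close to Ppp1cb in R206W, and Ppp1r14a is at −0.53 in P209L. The medians of the 5 lists lie between −0.04 and 0.08.

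The 2 groups of 8-week controls, which share age and genotype and differ in line, gave the background between lines. For the 9 genes the R206W controls minus the KO controls lay between −0.03 and 0.23, where the median of all genes was 0.13. Limma called 0 of 9, and 0 of 9 at an unadjusted p under 0.05, against 0.0% and 3.12% of all genes. For Ppp1r9b the difference was −0.03 (−0.24 to 0.18) and for Phactr3 0.04 (−0.15 to 0.22). Median-of-ratios scaling brought the median of all genes to −0.0024. The differences of Ppp1r9b and Phactr3 were then −0.18 and −0.11, and 0 of 9 were called, with no share of all genes taken. Without KO control 1 the 9 differences lay between −0.13 (Phactr1) and 0.11 (Phactr2), that of Ppp1r9a was 0.0025 in place of 0.23, and the median of all genes was −0.0014. Limma then called 0 of 9, and 0 of 9 unadjusted, against 0.0184% and 1.89% of all genes.

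The 3-week P209L controls differed from the 8-week controls in 7 of the 9 genes, all lower at 3 weeks, with limma adjusted p-values under 0.05. Of all genes, 36.1% passed that threshold and 46.0% an unadjusted p under 0.05, which 7 of the 9 passed as well. Neuronal markers summed to 2924 and 2645 TPM in the 3-week controls. At 8 weeks the sum was 2931 TPM in KO control 1 and 4726.5 to 5231 TPM in the other controls. Oligodendrocyte sums went the other way, at 3964 and 5928 TPM against 2570.5 to 3491 TPM. The part of cell composition in these differences was not tested. The P209L controls were also the reference of the P209L comparison, so the 2 comparisons share mice, and Ppp1r9b and Phactr3 were picked with those mice in view. Ppp1r9a was lower by the most, with a log2 difference of −1.12 (SE 0.173, adjusted p = 0.000257). Phactr2 (−0.87), Ppp1r9b (−0.76), Phactr4 (−0.71), Ppp1cb (−0.70), Ppp1cc (−0.63) and Phactr1 (−0.59) followed, with adjusted p-values of 7.78e-05 to 0.0104. Phactr3 (−0.17, adjusted p = 0.141) and Ppp1ca (−0.02, adjusted p = 0.923) did not pass. With sample weights Phactr3 did pass (−0.175, limma adjusted p = 0.0174). The median of all genes was −0.12 on this scale and −0.02 after median-of-ratios scaling. With that scaling limma called 7 of 9 as well, with no share of all genes taken, and Ppp1ca had a positive value of 0.10. Without P209L control 1, Phactr1 (adjusted p = 0.107) and Phactr4 (adjusted p = 0.0595) were not called, and without P209L control 2 Phactr1 was not (adjusted p = 0.0553). The call counts were 7 of 9 without KO control 1 (8 unadjusted), against 50.3% and 56.3% of all genes, and 6 of 9 without P209L control 2 (7 unadjusted), against 16.7% and 33.0%.

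The P209L mice can be set beside these levels. Ppp1r9b in the P209L mice at 3 weeks (579.7 to 663 TPM) was above all of the 8-week controls (339 to 389 TPM), and so was Phactr3 (119 to 142 TPM against 80.3 to 84.2 TPM). Ppp1cb in the P209L mice (203 to 225 TPM) overlapped the 8-week controls (182 to 214 TPM). Ppp1r9a (41.0 to 60.5 TPM) passed KO control 1 (59.8 TPM) in 1 P209L mouse and lay below the other 5 of the 8-week controls (92.4 to 98.2 TPM), and Phactr1 (98.5 to 135 TPM) lay below all of the 8-week controls (142 to 234 TPM). Line, age and the 2 control mice available cannot be told apart in these values.

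**Figure D5:**
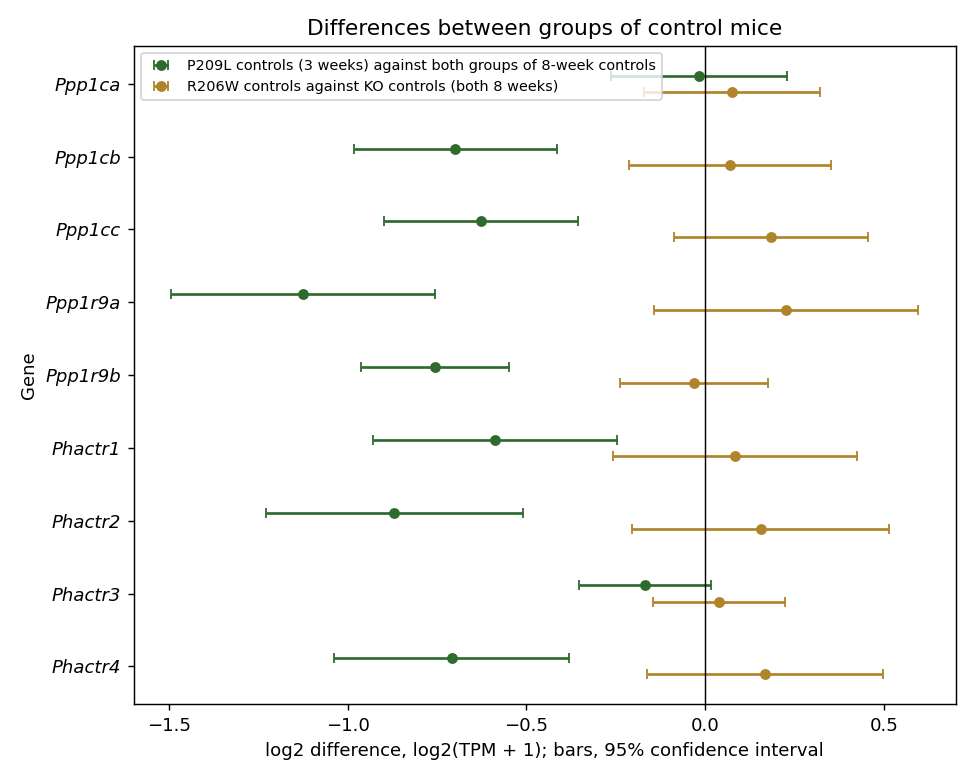
Log2 difference of TPM + 1 (x axis) for the 9 genes (y axis) between groups of control mice: the 3-week P209L controls against both groups of 8-week controls, and the R206W controls against the KO controls. Points are limma estimates and bars 95% confidence intervals; 7 genes lie below 0 at 3 weeks with intervals that exclude 0, and all intervals of the 8-week comparison include 0.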

How the data were processed

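The authors deposited TPM values by gene symbol for each mouse, from stranded total RNA libraries (TruSeq). The submitters' processing notes name Trim Galore, STAR 2.7.1a, GATK 4.0.4.0, RSEM and build mm10, and the annotation release is not given in the sources used here. TPM keeps no depth, so no counting error is given. Rows that shared a symbol (237 of 55573) were summed. Coordinates came from GENCODE M21 (GRCm38) by symbol.

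Values were tested as log2(TPM + 1) in 16265 genes with a mean of at least 1 TPM, using limma 3.58.1 in R 4.3.3 with a mean for each of 6 groups, a trended prior and a two-sided moderated test. Benjamini-Hochberg adjustment ran over all tested genes of a comparison, with a threshold of 0.05. The fit was tested on simulated data in which each gene had the same spread in all mice, so mice that stand apart were not modelled. The members, gene lists and comparisons were chosen with earlier results of these data known. Named genes were all 9 members, up to 3 genes per list and comparison with the smallest p, 5 genes of closest pattern and chromosomal neighbours. Alternatives were other pseudocounts, filters and scaling, a fit of each comparison alone, sample weights and the replicate number as a block. Each mouse of the groups compared was also left out in turn. Promoters were matched to RefSeq by symbol. P-values set each difference against the residual spread of the gene, pooled over the mice of all 6 groups and moderated towards the trend.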

Additional observations from a re-analysis of the deposited data

Results flagged for a closer look

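Ppp1cc was lower than the mean of its controls in each of the 3 KO mice and higher in each of the 3 P209L mice, which flagged the difference between the 2 lines. The KO effect minus the P209L effect was −0.45 on the log2(TPM + 1) scale. The difference was not tested, and the lines differ in age. KO control 1, at 72.4 TPM against 103 and 102 TPM in the other KO controls, lay below all 3 KO mice (81.8 to 88.9 TPM).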

How the results depend on the processing

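The limits are few mice, 2 of them the P209L controls, unknown depth and TPM scaling, which ties each value to the makeup of its sample. Settings were other pseudocounts (0.1 and 0.5), no filter or a filter at 5 TPM (where Phactr4 drops out) and median-of-ratios scaling. Others were the groups of a comparison alone, a replicate block, sample weights (estimated gene by gene) and leaving out each mouse of the groups compared. Of 983 alternative values for single members, 917 kept their direction and their side of the threshold, or moved by less than 1 SD where no test was made. Where they did not, the cause was not tested. With sample weights the calls were 2 of 7 in KO (Ppp1ca and Ppp1cc), 1 in P209L (Ppp1cb) and 1 in the KO effect minus the R206W effect (Ppp1cb). Phactr3 was also called lower at 3 weeks than at 8 weeks with these weights (−0.175, limma adjusted p = 0.0174). In the average of both knockins there were 0 with median-of-ratios scaling, and 0 to 1 without 1 mouse. At 3 weeks against 8 weeks the calls were 5 to 7 of 9 without 1 mouse. Shares of all genes called were taken only for the main fit and without KO control 1 or P209L control 2. Counts under the other settings therefore have no such share beside them and are not read as a result about the members. Chosen after seeing the data, counts of genes and lists were also taken without KO control 1 or P209L control 2, and 3 of 7 in place of 0 were then wholly lower in KO without KO control 1.

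Values that changed sign were small and not called. With median-of-ratios scaling they were Phactr1 in KO (−0.019), Ppp1ca at 3 weeks against 8 weeks (0.10), and, in R206W controls against KO controls, Phactr1 (−0.065), Phactr3 (−0.11), Ppp1ca (−0.073) and Ppp1cb (−0.079). With sample weights they were Phactr1 in KO (−0.17), in the KO effect minus the R206W effect (−0.10) and between the 8-week controls (−0.058), Ppp1r9a in R206W (−0.016) and Ppp1ca between the 8-week controls (−0.047).

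Leaving out 1 mouse gave ranges that crossed 0. In KO they were −0.31 to 0.028 for Ppp1r9a, −0.098 to 0.018 for Ppp1r9b, −0.067 to 0.027 for Phactr3, −0.15 to 0.21 for Phactr1, −0.092 to 0.23 for Phactr2, −0.020 to 0.29 for Phactr4 and −0.16 to 0.028 for Ppp1ca. In R206W they were −0.045 to 0.12 for Ppp1r9a, −0.076 to 0.016 for Phactr1 and −0.10 to 0.055 for Phactr2. In P209L they were −0.16 to 0.066 for Phactr4 and −0.10 to 0.038 for Ppp1ca, and in the average of both knockins −0.0062 to 0.065 for Ppp1ca. In the KO effect minus the R206W effect they were −0.14 to 0.22 for Phactr1, −0.052 to 0.27 for Phactr2 and −0.22 to 0.026 for Ppp1cc. Between controls they were −0.077 to 0.015 for Ppp1ca by age, and by line −0.077 to 0.022 for Ppp1r9b, −0.13 to 0.23 for Phactr1 and −0.043 to 0.14 for Ppp1ca.

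Mice with the same number did not deviate together in every pair (correlations of −0.06 to 0.33 in the KO line, −0.11 to −0.03 in R206W and 0.0028 to 0.08 in P209L), so the numbers were not taken as pairs. With a replicate block the calls were 1 in the average of both knockins, 7 at 3 weeks against 8 weeks and 0 in the other comparisons, as without it. Ppp1cb changed by 0.58 in that average (limma adjusted p = 0.0298), and Ppp1ca at 3 weeks against 8 weeks changed sign (0.033). The share of all genes called with the block was not taken.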
